A study of Mus musculus with 6 samples.

Results

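Immunoglobulin variable genes are described here in cell populations sorted from mouse hind limb muscle at 2 ages. The members were all named genes of the array whose symbol begins with Ighv (heavy chain) or Igkv (kappa light chain), each read by its brightest probe by mean over the 6 arrays. They were 53 of 19321 named genes, 28 heavy and 25 kappa. Each of the 53 had 1 probe, and no probe carried several gene names. The RefSeq mouse annotation (GRCm38.p6, used for names and gene order alone) lists 345 variable segments under these symbols, 183 heavy and 162 kappa, and the 53 are those analysed here. It annotates 2 of the 53, Igkv3-11 and Ighv7-1, as pseudogenes.

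The arrays were 6 one-colour arrays of Cy5-labelled amplified RNA, 1 for each of 3 freshly sorted populations at 2 ages, all from C57BL/6 mice. The populations were PDGFRa+ mesenchymal progenitors (PDGFRa below), satellite cells, which are the stem cells of muscle fibres, and a mixture of cells that carry CD31 or CD45 (CD31_CD45 below), surface proteins of endothelial and blood-derived cells respectively. Young mice were 8 to 10 weeks old and aged mice 24 to 28 months old. No group carried a transgene or treatment in the labels. Cells of repeated sorts were pooled, so an array is a pool, and there was 1 array per population and age with no replicate.

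An antibody's antigen-binding end is formed by a heavy and a light chain variable domain. In developing B cells V(D)J recombination joins a variable segment to short neighbouring segments, and each mature B cell then transcribes mainly the heavy and the light chain it assembled. Plasma cells, the antibody-secreting descendants of B cells, carry far more immunoglobulin mRNA than resting B cells. Mesenchymal progenitors, satellite cells and endothelial cells do not rearrange these genes. The number before the dash in a symbol is the subgroup of segments most alike in sequence, such as Ighv1, the large J558 group of the mouse heavy chain locus. A probe to such a segment may also bind transcripts of related segments, and the probes' sequences were not analysed here, so a value below is that of a probe under its annotated name.

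On every array 88.4% to 92.3% of 23473 probes lay above background, and the deposited intensities are scaled to a median of 25 on each array. The sort markers lay where the labels put them: Pdgfra read 5700.4 (young) and 4149 (aged) in PDGFRa, Pax7 1055 and 1361.6 in satellite cells, and in CD31_CD45 Pecam1, which encodes CD31, read 2464.8 and 2450.7 and Ptprc, which encodes CD45, 251.7 and 414.6. Outside their own populations these markers read at most 60.6, the value of Pdgfra in aged satellite cells, against 7.6 in the young ones. Of 9 mesenchymal progenitor markers, 5 were at least 2-fold higher in aged than in young satellite cells on the normalised scale, beside 1.12% of 18185 genes. Dcn, for example, went from 453.6 to 2544. Intensities below are the authors' linear values. Log2 differences come from the scanner files after background correction with an offset of 50 and quantile normalisation, and the offset makes them smaller than the intensity ratios for dim probes.

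The variable genes were bright on a single array, that of aged CD31_CD45. On it 52 of the 53 members were above background, beside 92.3% of all probes. Above 25, the array median, were 48 members, and 36 read above 100. The highest value of 52 of the 53 was on this array. The shares of all genes above 100 or highest on this array were not counted. The heavy genes ranged from 14.5 to 1886.8 on that array and the 24 kappa genes above background from 23.2 to 5606.1. On the other 5 arrays 4 members passed 25 on any array: Ighv1-76, Igkv4-71, Igkv4-72 and Igkv16-104. The highest heavy value on those arrays was 32.9 and the highest kappa value 38.

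**Figure D1:**
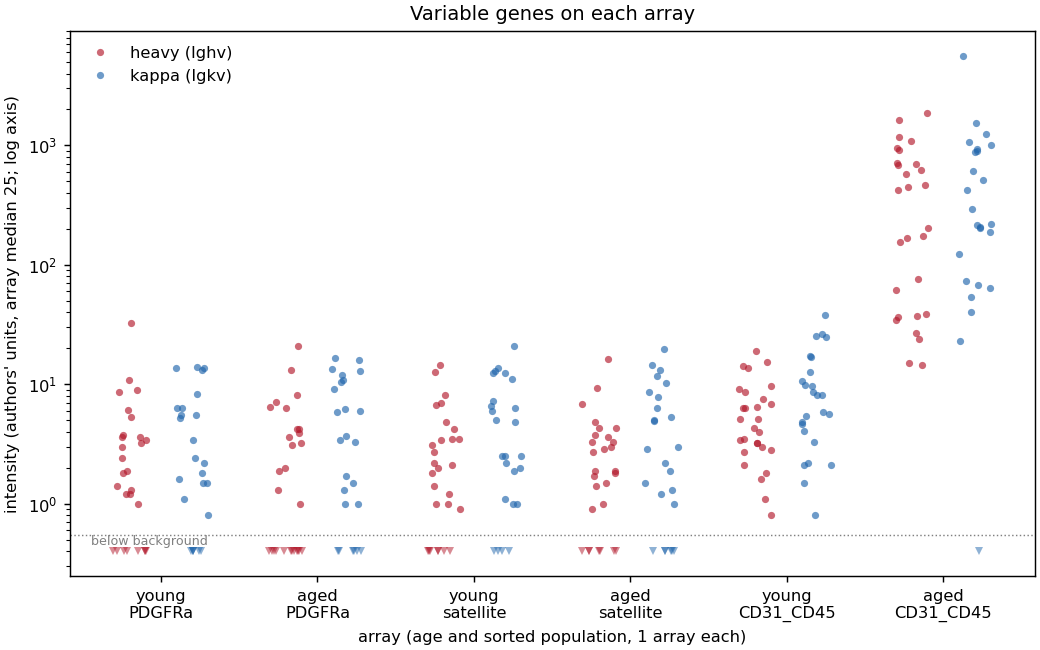
Intensity of each of the 53 variable genes on each of the 6 arrays (authors' linear units, log axis, array median 25). Each point is 1 gene, heavy genes in red and kappa genes in blue, and triangles under the dotted line are genes below background. The aged CD31_CD45 array holds values up to 5606.1, and the other 5 arrays hold none above 38.

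All 28 heavy genes and 24 of the 25 kappa genes were higher in aged than in young CD31_CD45, beside 7998 of 18372 genes tested. The difference reached 2-fold on the normalised scale for 43 of 53 members (81.1%), 20 heavy and 23 kappa, beside 93 of 18254 genes above background (0.509%). It reached 8-fold for 25 members (47.2%), 14 heavy and 11 kappa, beside 26 genes in all (0.142%), the other being Mzb1. No member was at least 2-fold lower, beside 12 genes (0.0657%). Ranked by this difference, the first 20 genes of the array were all variable genes, as were 28 of the first 30 and 37 of the first 50. These counts set 1 array against 1 array and have no replicate check. In such bulk samples more cells of a type and more RNA per cell cannot be told apart.

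**Figure D2:**
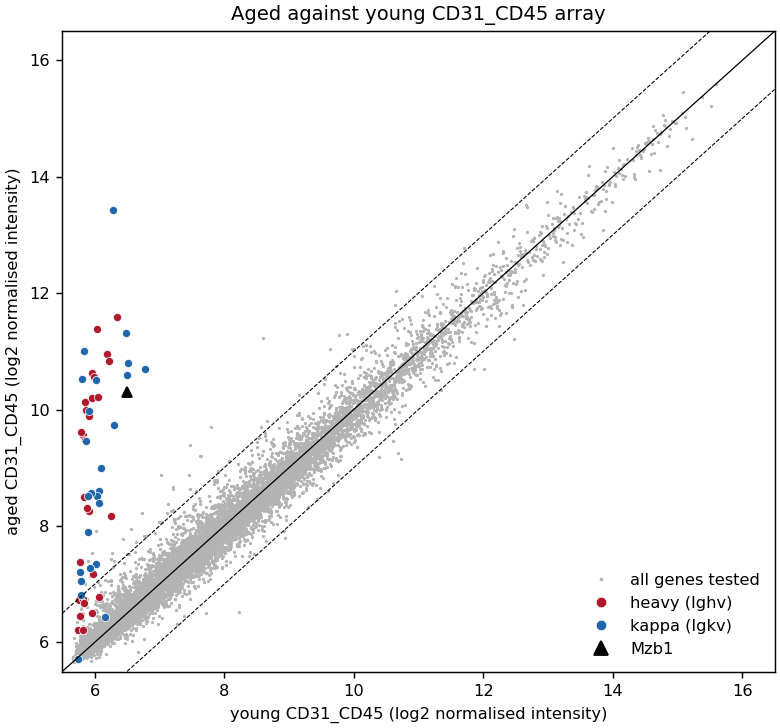
Log2 normalised intensity on the aged CD31_CD45 array (vertical axis) against the young CD31_CD45 array (horizontal axis) for all 18372 genes tested. Red and blue points are heavy and kappa variable genes, the triangle is Mzb1, the solid line marks equality and the dashed lines 2-fold. Of the 53 variable genes 43 lie above the upper dashed line, all at the dim end of the young array.

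Among the heavy genes, Ighv1-55 differed most. It was below background on all 4 arrays of PDGFRa and satellite cells, read 8.7 in young CD31_CD45 and 1644.7 in aged CD31_CD45, a log2 difference of 5.36. Ighv1-76 read 32.9 (young) and 21.1 (aged) in PDGFRa, 14.4 and 16.3 in satellite cells, and 18.9 and 1886.8 in CD31_CD45, a log2 difference of 5.26 in the last pair. The young CD31_CD45 value of Ighv1-76 lay below that of young PDGFRa, so on this probe nothing but the aged CD31_CD45 array stood apart.

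Ighv1-82 read 3.8 (young) and 13.2 (aged) in PDGFRa, 4.8 and 3.8 in satellite cells, and 13.6 and 1183.8 in CD31_CD45 (log2 difference 4.77). Ighv1-18 was below background in aged PDGFRa and young satellite cells, read 1.2 in young PDGFRa and 3 in aged satellite cells, and went from 6.5 to 953.9 across the CD31_CD45 pair (4.67). Ighv1-83, which lies next to Ighv1-82 in the RefSeq order of the locus, read 6.1 and 4.2 in PDGFRa, 4.2 and 4.8 in satellite cells, and 14.3 and 1096.2 in CD31_CD45 (young first, 4.63). In all 3 the aged CD31_CD45 value was the highest of the 6, and in Ighv1-82 the aged PDGFRa value lay close to the young CD31_CD45 value.

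Ighv1-78 read 3.6, 3.4 and 7.5 on the young arrays of PDGFRa, satellite cells and CD31_CD45, and 7.1, 2.9 and 922.5 on the aged arrays in the same order (log2 difference in CD31_CD45 4.57). Ighv1-64 was below background on the aged arrays of PDGFRa and satellite cells, at 1.3 and 1.2 on their young arrays, and at 2.1 and 469.8 in young and aged CD31_CD45 (3.82). Ighv9-3 read 3, 3.5 and 9.1 on the young arrays of the 3 populations and 3.1, 4.3 and 715.9 on the aged ones (4.16). Ighv9-3 was the only one of 11 heavy genes outside the Ighv1 subgroup to reach 8-fold, against 13 of the 17 Ighv1 genes.

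The kappa gene Igkv3-11, 1 of the 2 members annotated as pseudogenes, had the largest difference of any gene tested in this pair. It read 5.5 (young) and 5.9 (aged) in PDGFRa, 6.6 and 5.3 in satellite cells, and 16.8 and 5606.1 in CD31_CD45, a log2 difference of 7.15. Whether its probe read transcripts of another kappa segment was not tested.

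Igkv6-20 read 2.2 in young and 897.3 in aged CD31_CD45, an intensity ratio of 407.9 and a log2 difference of 4.72, and on the remaining arrays it was above background only in aged satellite cells, at 1.9. Igkv5-39 read 1.1 and 16.7 in young and aged PDGFRa, 12.5 in young satellite cells, below background in the aged ones, and 3.3 (young) and 1238.8 (aged) in CD31_CD45 (5.17). Igkv16-104 read 1.6 and 6 in PDGFRa, 2 and 1.3 in satellite cells and 26.2 and 1071.2 in CD31_CD45 (young first, 4.28). Igkv5-39 was thus higher in aged PDGFRa and young satellite cells than in young CD31_CD45, whereas in Igkv16-104 both CD31_CD45 arrays lay above the other 4.

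All 8 genes of the Igkv4 subgroup were at least 2-fold higher in aged CD31_CD45. Igkv4-55 read between 12 and 13.6 on the 4 arrays of PDGFRa and satellite cells, 24.8 in young CD31_CD45 and 1530.2 in aged CD31_CD45 (log2 difference 4.83). Igkv4-71 read between 13.4 and 14.4 on the same 4 arrays, then 25.3 and 931.2 (4.09), and Igkv4-72 read between 10.5 and 21, then 38 and 1009.4 (3.92). In these 3 genes young CD31_CD45 was the second highest array. Igkv4-91 differed from them in reading 5.4 in young CD31_CD45 against 7.9 in aged satellite cells and 1.7 to 2.4 on the remaining arrays of the other populations, before 611.5 in aged CD31_CD45 (4.06).

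At the other end stood 10 members under 2-fold on the normalised scale, a count that rests on the offset and background. It was 2 of 53 with an offset of 10 or on the authors' linear values with a pseudocount of 1, and 19 of 52 with local background. In linear intensity 8 of the 10, all heavy, were 4.03 to 33.3 times higher in aged than in young CD31_CD45. Igkv7-33 was the only member not above background in aged CD31_CD45, and it read 1 in young satellite cells, 0.8 in young CD31_CD45 and below background elsewhere (log2 difference -0.03). Igkv2-112 read 11.8 to 13.3 on 5 arrays and 23.2 in aged CD31_CD45 (0.26), and Ighv4-1 read 2.8 to 3.6 on 5 arrays and 14.5 in aged CD31_CD45 (0.38). For the last 2 genes the aged CD31_CD45 array was still the highest of the 6. Ighv7-1, the other annotated pseudogene, read 3.4 and 3.2 in PDGFRa, 6.7 and 3.3 in satellite cells, and 1.6 and 24.2 in CD31_CD45 (young first, 0.68), and Ighv5-15 read 6.5 to 12.7 on 5 arrays and 39.1 in aged CD31_CD45 (0.71).

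Heavy and kappa genes were then set side by side. The median log2 difference between aged and young CD31_CD45 was 3.14 over the 28 heavy genes (range 0.38 to 5.36) and 2.63 over the 25 kappa genes (range -0.03 to 7.15), beside -0.01 over all 18372 genes tested. The heavy range lay inside the kappa range, and the order of the medians depended on the processing. With local background they were 1.74 and 1.78, with an offset of 10 they were 4.74 and 4.05, and from the authors' linear values 5.88 and 4.70. In the authors' linear units the aged value was a median of 70.1 times the young one for heavy genes (range 4.03 to 224) and 33 times for the 24 kappa genes above background on both arrays (1.84 to 408).

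Within each family, subgroups had different medians on the offset scale. The 17 Ighv1 genes had a median log2 difference of 4.13 (0.48 to 5.36) and 15 of them reached 2-fold, whereas the 11 genes of other heavy subgroups had a median of 0.92 (0.38 to 4.16) and 5 reached it. The 8 Igkv4 genes had a median of 3.99 (2.63 to 4.83) and all 8 reached 2-fold, and the 17 kappa genes of other subgroups had a median of 2.34 (-0.03 to 7.15) and 15 reached it. In linear intensity every heavy gene passed 2-fold, and the median ratio of aged to young was 112 for Ighv1 (18.9 to 224) and 10.8 for the other heavy subgroups (4.03 to 78.7). It was 49.3 for Igkv4 (26.6 to 113) and 25.9 for the 16 other kappa genes above background on both arrays (1.84 to 408). Members of a subgroup are alike in sequence and are not independent readings, and these contrasts between subgroups were not tested.

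**Figure D3:**
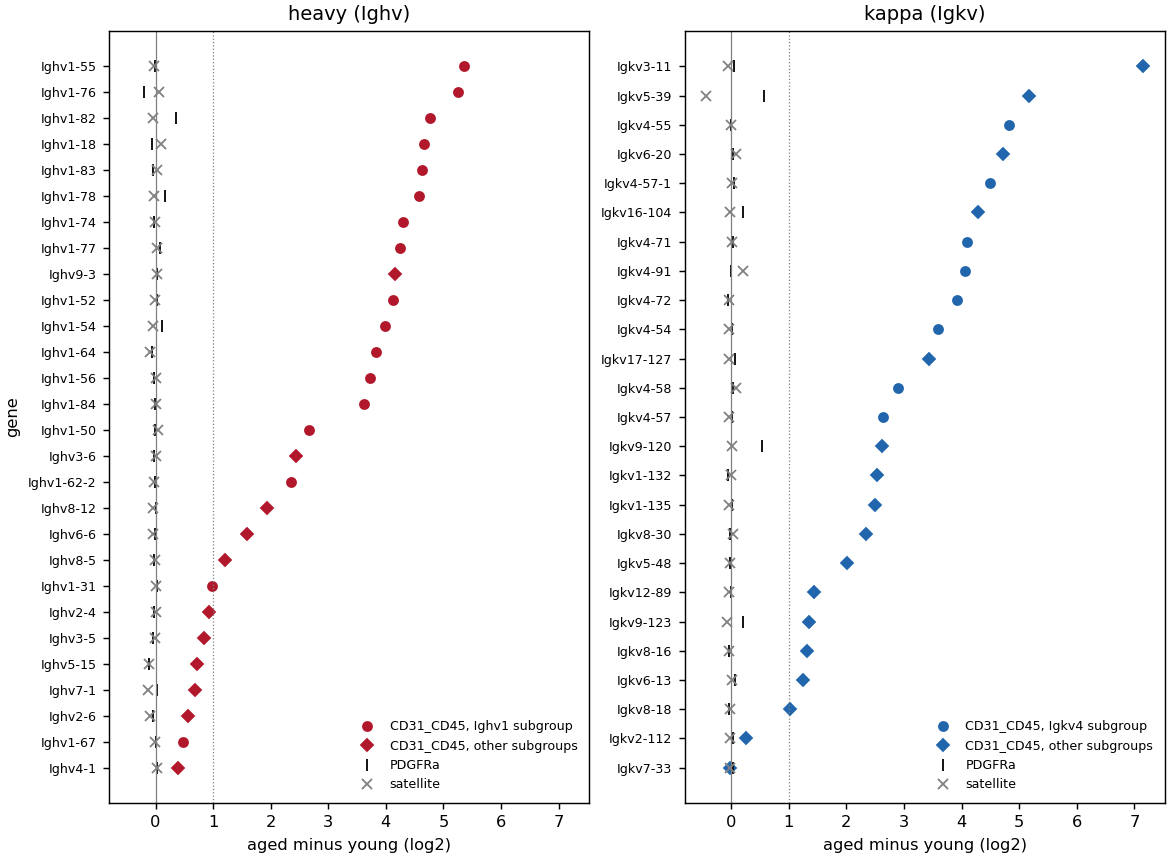
Aged minus young log2 difference of each variable gene, heavy genes on the left and kappa genes on the right, ordered by the CD31_CD45 value. Filled symbols are CD31_CD45 (circles for Ighv1 and Igkv4, diamonds for other subgroups), vertical ticks PDGFRa and crosses satellite cells, and the dotted line marks 2-fold higher. CD31_CD45 values spread from -0.03 to 7.15, and no PDGFRa or satellite value exceeds 0.58.

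Probes of genes next to each other did not read alike in every case. In the RefSeq order 6 pairs of heavy members have no other variable segment between them, named here after their values were seen. Ighv1-82 and Ighv1-83 differed by 0.14 in their CD31_CD45 log2 difference and Ighv1-77 and Ighv1-78 by 0.33, while Ighv1-83 and Ighv1-84 differed by 1.00 and Ighv1-54, Ighv1-55 and Ighv1-56 by 1.37 and 1.63 from neighbour to neighbour. The remaining pair, Ighv8-5 and Ighv1-50, belongs to different subgroups and differed by 1.46. No kappa pair met this criterion.

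Across the 6 arrays, heavy and kappa members had nearly the same profile, with a median Pearson r of 0.997 over 700 heavy and kappa pairs, 0.998 among heavy pairs and 0.997 among kappa pairs. These values rest on 1 array: over the 5 arrays without aged CD31_CD45 the medians were 0.58, 0.55 and 0.66. All pairs share the same libraries, and the points are 6 and 5 arrays.

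In PDGFRa and satellite cells the variable genes were dim at both ages and showed no 2-fold age difference. Of the 53 members, 39 and 35 were above background in young and aged PDGFRa and 42 and 40 in the satellite cell arrays, with medians of 3.4, 4.2, 3.45 and 3.3 among those above it. The SD of the blank spots was 0.331 to 0.455 in the same units. In the PDGFRa pair 0 of 41 members above background on the brighter array were 2-fold higher and 0 were 2-fold lower, beside 0.255% and 0.161% of 18012 genes. In the satellite pair both counts were 0 of 45, beside 1.12% and 0.099% of 18185 genes.

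The family medians of the log2 age difference were -0.02 (heavy) and 0.03 (kappa) in PDGFRa and -0.01 and -0.02 in satellite cells, values so near 0 that the sign of the first turned with median scaling and that of the last 2 with local background. The widest values were those of Igkv5-39, 0.58 in PDGFRa and -0.43 in satellite cells, followed in PDGFRa by Igkv9-120, 0.53. Igkv9-120 read 1.8 and 16.1 in young and aged PDGFRa, 2.5 and 2.9 in satellite cells, and 4.8 and 205.6 in CD31_CD45, young first. With an offset of 10 both genes passed 2-fold in PDGFRa (log2 1.54 and 1.40), and Igkv5-39 was 2-fold lower in satellite cells (-1.28). On the authors' linear values with a pseudocount of 1, 6 members were 2-fold higher and 6 lower in PDGFRa, and 3 higher and 5 lower in satellite cells, all at intensities below the array median.

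Young CD31_CD45 also carried signal from these probes, at a low level. All 53 members were above background on that array, with a median intensity of 5.6, a lowest value of 0.8 and a highest of 38. It was above the other 2 young arrays for 41 members (77.4%), beside 28.4% of all genes tested. Both CD31_CD45 arrays were above the other 4 for 39 members (73.6%), 21 heavy and 18 kappa, beside 19.4% of genes. For the other 14 members the young CD31_CD45 value was at most equal to the highest of the 4 arrays of PDGFRa and satellite cells.

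Tests of population over both ages did not call these genes. In limma's additive model of cell type and age, 0 of 53 members passed an adjusted p of 0.05 with 2-fold for CD31_CD45 against PDGFRa (smallest adjusted p = 0.2183), beside 10.1% of all genes. The count was also 0 of 53 for CD31_CD45 against satellite cells (smallest adjusted p = 0.188, limma) beside 11.7%, and for PDGFRa against satellite cells (0.8119) beside 7.28%. In none of these comparisons did a member reach an unadjusted p of 0.05. For age over all 3 populations, the other term of the model, 0 members and 0 of 18372 genes (0%) passed in limma (smallest adjusted p of a member = 0.6173), and 0 members and 2026 genes had an unadjusted p under 0.05. All 53 members passed the filter of 2 arrays above background, 5 of them through the CD31_CD45 arrays alone. Those 5, named after their values were seen, were Ighv1-55, Ighv1-67, Ighv1-84, Igkv8-30 and Igkv12-89.

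The estimates were large, and so were their errors. Igkv3-11 was higher in CD31_CD45 than in PDGFRa by 3.92 ± 2.21 on the log2 scale (SE, 2 residual degrees of freedom, adjusted p = 0.2955, limma), and Ighv1-55 by 3.02 ± 1.66 (adjusted p = 0.2858). In this model the 2 arrays of a population differ in age, so the age difference of the CD31_CD45 pair enters the error. The fit without young CD31_CD45 given next kept the filter set on all 6 arrays. Ighv1-55, Ighv1-84, Igkv8-30 and Igkv12-89, among the members it called, passed that filter through the CD31_CD45 arrays alone. The young CD31_CD45 array decided the count. Without it, limma called 44 of 53 members (83%) higher in CD31_CD45 against PDGFRa, beside 4.95% of genes, and the same 44 (21 heavy, 23 kappa) against satellite cells, beside 5.81%. The adjusted p-values of those calls ran from 0.009456 to 0.04401 on 1 residual degree of freedom, and the lone CD31_CD45 array is assumed there to vary as the other populations do. Leaving out any other array gave 0 calls in both comparisons.

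Whether the age difference in CD31_CD45 exceeded that in the other 2 cell types was tested with an interaction term, added after the data were seen. With a common prior for the error, limma called 0 of 53 members and 0 of 18372 genes (0%), with a smallest adjusted p among members of 0.09807, and 51 members and 1173 genes had an unadjusted p under 0.05. With a prior that follows the mean level, limma called 42 of 53 members (79.2%) beside 50 genes in all (0.272%). The 42 are thus most of the genes called. Igkv3-11 exceeded by 7.15 ± 0.19 (log2, SE, adjusted p = 0.001239) and Igkv5-39 by 5.09 ± 0.42 (adjusted p = 0.02652). The test has 1 residual degree of freedom, and its error comes from the difference between the PDGFRa and satellite age pairs, where the members are dim. It holds no measure of the spread between 2 aged CD31_CD45 pools. Ighv1-55, Ighv1-84, Igkv8-30 and Igkv12-89, among those called with the prior that follows the mean level, passed the filter through the CD31_CD45 arrays alone.

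Most genes that mark B cells were also higher in aged CD31_CD45, by less. The list gave 22 genes analysed here, of which 21 were tested. Of the 22, 19 were higher and 2 reached 2-fold, with a median log2 difference of 0.27. Lower were Fcer2a, at 22.3 (young) and 16.6 (aged), Ralgps2, at 16.7 and 16.2, and Cr2, at 1.4 and below background. In this pair 7998 of 18372 genes tested were higher, the base for this list and those below. Ms4a1, which encodes CD20, read 2.1 to 2.4 in PDGFRa and satellite cells and 64.9 (young) and 168.5 (aged) in CD31_CD45 (log2 difference 1.05). Cd79b, a signalling subunit of the B cell receptor, read 7.1 to 36.2 in PDGFRa and satellite cells and 147.7 and 327.9 in CD31_CD45 (1.04), and its partner Cd79a read 16.4 and 40.5 (0.53). The intensity ratios of these 3 genes were 2.60, 2.22 and 2.47, beside the median of 40.7 over the 52 variable genes above background on both CD31_CD45 arrays.

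In the population tests, 6 of 21 B cell genes rose in CD31_CD45 against PDGFRa (Ms4a1, Cd79b, Blnk, Fcrla, Fcmr and Ly6d), 6 rose against satellite cells (Ebf1 in place of Blnk), and 0 fell in either. Over all genes tested, in either direction, 10.1% were called against PDGFRa and 11.7% against satellite cells. The summed intensity of the list was 677.4 and 714.2 in young and aged PDGFRa, 1765 and 1350 in satellite cells and 1274 and 2113 in CD31_CD45. Ebf1, at 431.8 and 484.1 in PDGFRa, and Blnk, at 1525.7 and 918.6 in satellite cells, make up most of the sum outside CD31_CD45, where Bcl11a, Fcrl5 and Cr2 were below background on all 4 arrays.

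Of 14 plasma cell genes, 13 were higher in aged than in young CD31_CD45 and 3 reached 2-fold, with a median of 0.27. Mzb1, an endoplasmic reticulum protein that assists antibody secretion, read 7.2 to 14.4 in PDGFRa and satellite cells and 25.4 (young) and 759.2 (aged) in CD31_CD45, a log2 difference of 3.79. It was the highest ranked gene that was not a variable gene, at rank 22. Derl3, of the pathway that degrades misfolded secretory proteins, went from 3.5 to 50.9 (1.15), and Eaf2, a transcription elongation partner, from 5.7 to 59.9 (1.22).

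Other plasma cell genes did not follow at this size. Prdm1, the transcription factor of plasma cell differentiation, read 12.6 and 15.4 in young and aged CD31_CD45 (log2 difference 0.06), Xbp1, which expands the secretory pathway, 881.8 and 1035.1 (0.28), Irf4 46.2 and 55 (0.14), Tnfrsf17, which encodes BCMA, 33.4 and 39 (0.10), and Sdc1, which encodes CD138, 24.3 and 36.7 (0.25). Xbp1 read 1422.9 and 1401.8 in young and aged PDGFRa, above both CD31_CD45 arrays. The summed intensity of the list was 5466 and 5182 in young and aged PDGFRa, 3588 and 4069 in satellite cells, and 3106 and 4602 in CD31_CD45. Against PDGFRa 0 of 14 rose in CD31_CD45 and 2 fell (Txndc5, Fkbp11), beside 10.1% of all genes called in either direction. Against satellite cells 2 rose (Irf4, Sec11c) and 1 fell (Txndc5), beside 11.7%.

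The recombination genes showed no such difference. Of 7 named, 2 were higher in aged CD31_CD45, none reached 2-fold and the median was -0.03. Rag1 and Rag2, which cut at variable segments, and Dntt, which adds bases at the joints, read at most 1.7 on any array or were below background. The surrogate light chain genes of B cell precursors, Vpreb1, Vpreb2 and Vpreb3, were all 3 lower, with a median of -0.19, and Vpreb3 read 27.7 and 19.1 in young and aged CD31_CD45 and at most 4.9 elsewhere. Pou2af1, a B cell coactivator that binds octamer factors at immunoglobulin promoters, read 11.5 and 33.6 in CD31_CD45 (0.54) and at most 2.9 in the other populations, while the octamer factor Pou2f2 read 56.1 and 54.8 (-0.02). No gene of these lists passed in a population test.

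Lambda variable genes, T cell receptor variable genes and 13 listed constant region and joining chain genes were not analysed here, so the variable genes were set neither against their constant regions nor against the closest related families. Of 10 Fc receptor and antibody transport genes 6 were higher in aged CD31_CD45 and 0 reached 2-fold, with a median of 0.15. Of these 5 rose in CD31_CD45 against both PDGFRa and satellite cells: Fcer1g, Fcgr1, Fcgr2b, Fcgr3 and Fcgr4. Over all genes, 10.1% and 11.7% were called in these comparisons, in either direction.

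Marker genes of other cell types also differed between the 2 CD31_CD45 pools. All 8 markers of blood-derived cells were higher in aged CD31_CD45, none by 2-fold, with a median of 0.60, and their summed intensity went from 3615 to 4859, against 36.3 to 86.2 on the other 4 arrays. Of 13 T and NK cell markers 10 were higher and 3 reached 2-fold (Cd3g, Cd3d and Nkg7), with a median of 0.49, and their sum went from 406.9 to 903.6, against 50.6 to 68.3. Of 10 endothelial markers 1 was higher, the median was -0.28 and the sum went from 38150 to 28810, against 443.7 to 780.2. Of 13 macrophage markers 9 were higher, none by 2-fold, with a median of 0.30 and sums of 42840 and 45150. Their sums were 9480 and 13990 in young and aged PDGFRa, where Ly6c2 alone read 9178.7 and 11899.5, and 672.2 and 1710 in satellite cells. Lyz2 read 110.1 and 1904.6 in PDGFRa, a log2 difference of 3.79, the largest of all genes tested in that pair. In satellite cells it read 147.3 and 965.3 (2.55). Of the 13 macrophage markers, 10 were higher in aged PDGFRa and 13 in aged satellite cells, beside 9146 and 8083 of 18372 genes tested. Lyz2 alone reached 2-fold in these pairs. All markers of these 4 lists that were named on the array were above background on both CD31_CD45 arrays. The part of these markers' cell types in the variable gene differences was not tested.

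**Figure D4:**
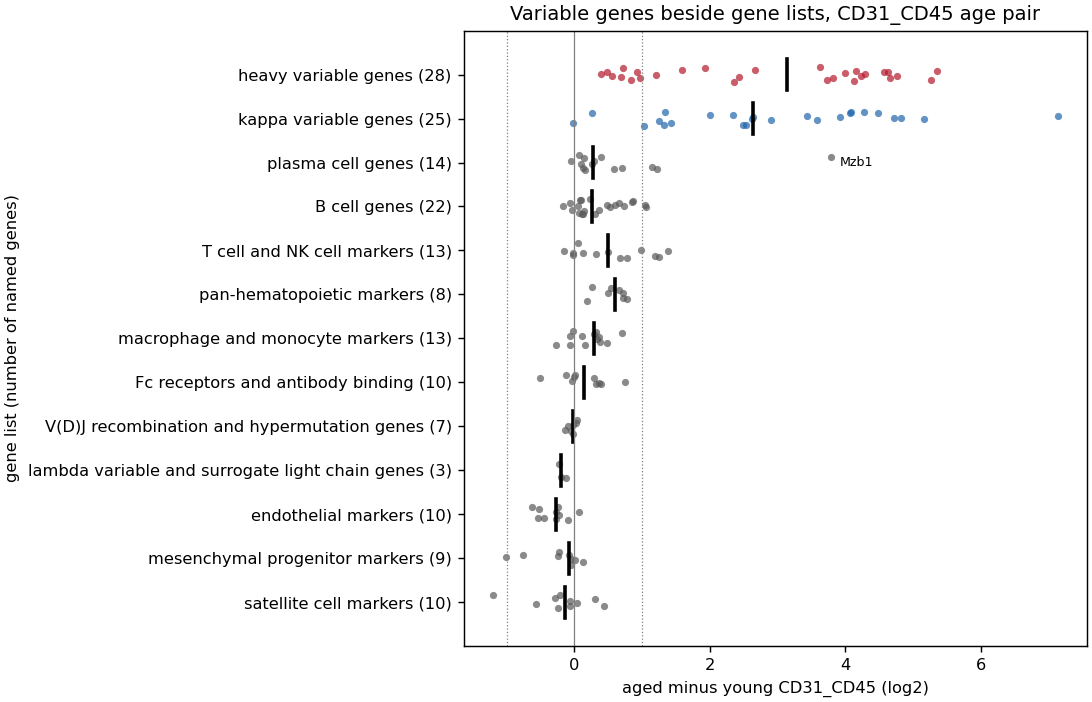
Aged minus young CD31_CD45 log2 difference of the variable genes and of 11 gene lists, each point 1 gene and each black bar the median of its list, with dotted lines at 2-fold. The medians are 3.14 for heavy and 2.63 for kappa variable genes, and the list medians lie between -0.28 and 0.60, with Mzb1 apart from the other plasma cell genes.

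The scanner's gain ratio placed the arrays in 2 sets, with slopes of 0.465 to 0.466 on young PDGFRa, young satellite cells and aged PDGFRa and of 0.477 to 0.478 on young CD31_CD45, aged satellite cells and aged CD31_CD45. The CD31_CD45 age pair thus lies within 1 set, so its differences above are within-set values, while both PDGFRa arrays lie in the other set and satellite cells span both. With the set as a block, limma called 0 of 53 members in each of the 3 population comparisons.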

How the data were processed

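Per the file headers, the scanner files hold median spot intensity at 635 nm merged from 3 gains, and the authors' deposited value table holds linear intensity scaled to a median of 25. A cell is empty where a spot was not above background. Log2 values were computed from the deposited spot intensity: normexp, taking as background the mean of the array's blank spots after 5% trimming, with an offset of 50, then log2 and quantile normalisation, without control and blank spots. Genes above background on at least 2 of 6 arrays were tested (18372).

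Models were fitted in R 4.3.3 by lmFit and eBayes of limma 3.58.1 (two-sided, Benjamini-Hochberg over all genes, prior degrees of freedom 1.498) and tested on simulated data. A gene was called at an adjusted p under 0.05 with 2-fold, and for the common age effect without a fold limit. For the interaction only positive differences were counted as calls. Age pairs have no test. The precision is limited by the number of arrays and, for dim probes, by signal.

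The members and lists were chosen with earlier results of these data known. Genes named were those called in a population test, the 6 brightest of each family by mean log2, the 3 largest and 3 lowest age differences of each population, members with several probes and the gene lists. Symbols were updated by Entrez identifier. Alternatives covered background, offset, normalisation, the value table, filters, probe choice, symbols, scanner set and each array left out.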

Additional observations from a re-analysis of the deposited data

Results flagged for a closer look

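Of 2567 probes without a gene name and above background on the brighter CD31_CD45 array, 19 (0.74%) were at least 2-fold higher in aged than in young CD31_CD45, 2 were lower, and 4 were at least 16-fold higher. They lie outside every comparison above, which used named genes. The probe M400007350 read 357.2 in young and 19484.7 in aged CD31_CD45, a log2 difference of 5.92, and also 3.7 and 77.4 in young and aged PDGFRa and 4.4 and 17.1 in young and aged satellite cells. It was the brightest of these probes, and its gene is not named in the tables used here. The probe M400005749 read 15 and 2488.9 in young and aged CD31_CD45, a log2 difference of 5.84.

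The age difference in CD31_CD45 exceeded that in the other 2 cell types for 42 of 53 variable genes when limma's prior followed the mean level, and for 0 with a common prior. The test was added after the data were seen and rests on 1 residual degree of freedom.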

How the results depend on the processing

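No call changed direction. The order of the heavy and kappa medians in CD31_CD45 turned with local background and with the filter of all 6 arrays. Medians near 0 changed sign: heavy in PDGFRa from -0.02 to 0.01 with median scaling, and in satellite cells heavy from -0.01 to 0.01 and kappa from -0.02 to 0.0011 with local background. In the authors' value table the median of all genes in the PDGFRa pair was -0.16. The count of members at least 2-fold higher in aged CD31_CD45 was 43, 33 of 52 with local background, 51 of 53 with an offset of 10 or in the authors' value table, and 26 of the 32 members left when a gene had to be above background on all 6 arrays, a filter that tests fewer genes. The median log2 difference in that pair was 1.74 (heavy) and 1.78 (kappa) with local background, 4.74 and 4.05 with an offset of 10, 5.88 and 4.70 in the authors' value table, and 2.36 and 2.90 under that filter. The offset by construction shrinks differences of dim probes, and the cause of the change with local background was not tested. In the population tests, CD31_CD45 against PDGFRa called 1 member in the authors' value table (Igkv8-30), and against satellite cells 1 with an offset of 10 (Igkv16-104) and 2 in that table (both genes), named after their values were seen. Leaving out 1 array at a time gave 0 to 44 in both comparisons, 44 without the young CD31_CD45 array, and 0 to 0 for PDGFRa against satellite cells and for the common age effect. At least 2-fold higher in aged PDGFRa were 2 members with an offset of 10 and 6 in the authors' value table, and in aged satellite cells 3 in that table. The interaction called 42 with the trended prior. The mean of all probes, symbols as annotated, median scaling, no background correction, no filter and the scanner set as a block left counts within 1.5 times. Leaving out an array gives no value for the age pairs, which have 1 array per age. No paired analysis was possible because each group has 1 array. Precision rests on 6 arrays and, outside aged CD31_CD45, on dim signals.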

Other observations

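Variable genes and Mzb1 apart, the highest ranked named genes by their difference between aged and young CD31_CD45 were the chemokine gene Ccl5, 2.63 higher on the log2 scale (rank 30), the major histocompatibility gene H2-Q5, 1.91 (rank 39), Ctla4, which encodes an inhibitory receptor of T cells, 1.89 (rank 40), Cytl1, 1.89 (rank 41), and the cytokine gene Ifng, 1.89 (rank 42). They were chosen by rank after the values were seen. These are differences of 1 array against 1 array, with no test.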
